A study of Gallus gallus with 60 samples.

Results

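Pectoral muscle of Tibetan chicken, a strain of Gallus gallus, was compared between embryonic day 18 (E18) and embryonic day 20 (E20), which are the last days before hatching. The 3 samples labelled E18 and the 3 labelled E20 were taken, 6 of the 60 samples of the study, and every miRNA listed for them entered the comparison. The study profiled small RNA in chicken muscle from the embryo to old age, beside whole embryos and other tissues, to find miRNAs that follow muscle growth. Both groups were untreated embryos from incubated eggs, neither carries a named genetic change or agent, and stage is the only difference that the labels give. The sex of the embryos, and whether embryos were pooled, are not given in the sources used here, so the p-values measure the spread between these samples.

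miRNAs are short RNAs cut from hairpin precursors, and they lower the stability or translation of mRNAs that pair with their seed. Each hairpin can give a mature RNA from its 5p and from its 3p arm, and usually one arm is kept while the other is mostly degraded. Vertebrate striated muscle is known for a few very abundant miRNAs, the myomiRs. Of these, miR-1 and miR-206 favour myoblast differentiation and miR-133 acts on proliferation and on serum response factor, as shown in mouse myoblasts.

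The deposited table lists 890 miRNAs. In the 6 samples 576 of them were above 0 in at least 1 sample, 456 known and 120 predicted by the authors (named new-gga-miRNA), and 314 were at 0 throughout. Levels are the deposited TPM values, which here are reads scaled to the same library total in each sample, with no length correction. Library totals were 9800409 to 10499106 reads, so 3 reads, the smallest amount taken as detectable, are 0.286 to 0.306 TPM, and this floor covers counting error only. The listed miRNAs summed to 445922 to 527617 TPM at E18 and 404709 to 529862 TPM at E20. No replicates of a stage were near-copies of one another: the chi-square of their reads, per degree of freedom, was 209 or more. The tissue label was checked against 8 listed striated muscle miRNAs, which summed to 138147 to 170926 TPM at E18 and 184677 to 225434 TPM at E20. Almost all of that was gga-miR-133a-3p, while gga-miR-1a-3p, the mature form of miR-1, reached at most 363 TPM and was listed at 0 in E18-3.

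Some samples stood apart from their group. E18-2 was rich in epithelial miRNAs: the 9 listed epithelial markers summed to 15661 TPM there, against 547 TPM in E18-1, 648 TPM in E18-3 and 205 to 466 TPM at E20. Most of this was gga-miR-205a, at 14742 TPM in E18-2. E18-1 held the highest levels of gga-miR-206, gga-miR-16-5p and gga-miR-146c-5p of all 6 samples. E20-2 was the E20 sample nearest to E18 in its summed level and in the number of miRNAs detected. The labels name no sequencing batch.

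The most abundant miRNA took a larger part of the library at E20. gga-miR-133a-3p, the myomiR that is known to restrain serum response factor, was at 135298, 162877 and 169463 TPM in the 3 samples of E18 and at 183319, 223742 and 190628 TPM in those of E20. All 3 samples of E20 lay above all 3 of E18. The change was 0.36 ± 0.16 on the log2(TPM + 1) scale (SE, n = 3 per stage, 95% interval −0.03 to 0.74; limma, adjusted p = 0.420), so it did not pass the test on the deposited scale. As a share of the summed TPM it was 30.3, 32.4 and 32.1% at E18 and 45.3, 42.2 and 46.6% at E20, or 31.6 ± 1.10% against 44.7 ± 2.23% (SD, n = 3). The shares did not overlap (two-sided exact test by permutation of the 6 samples, p = 0.1, the smallest that 3 samples against 3 can give). DESeq2 on recovered reads, which rescales the libraries, gave a change of 0.69 that passed its adjusted p but not the 2-fold limit.

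The other miRNAs together showed the reverse. Without gga-miR-133a-3p the listed miRNAs summed to 310623, 340464 and 358154 TPM at E18 and to 221391, 306120 and 218826 TPM at E20. The stages did not overlap (336414 ± 24023 against 248779 ± 49675 TPM, SD, n = 3; same exact test, p = 0.1). The gap was narrow, between 310623 TPM in E18-1 and 306120 TPM in E20-2. Each library has a fixed total, so a larger part for gga-miR-133a-3p leaves less for the rest. This result is thus not independent of the larger part of gga-miR-133a-3p. With gga-miR-133a-3p included, the sums overlapped and the difference of means was within the spread of the samples (same exact test, p = 0.4). The 10 most abundant miRNAs, with gga-miR-133a-3p counted among them, held 66.0 to 68.7% of the summed TPM at E18 and 71.1 to 74.4% at E20. This share therefore includes the rise of gga-miR-133a-3p itself and does not describe the other miRNAs.

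**Figure D1:**
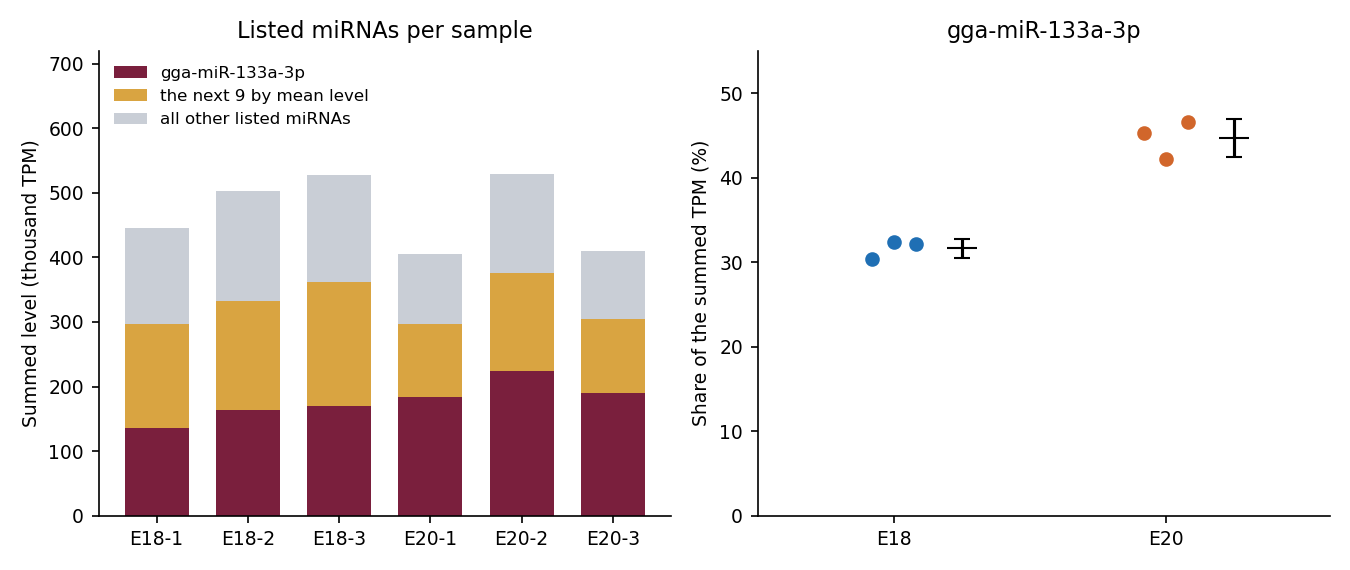
Left, the summed level of all listed miRNAs in each sample in 1000 TPM, divided into gga-miR-133a-3p, the next 9 miRNAs by mean level and all others. Right, the share of gga-miR-133a-3p in the summed TPM of each sample (points), with the mean and SD of each stage beside them: 31.6 ± 1.10% at E18 and 44.7 ± 2.23% at E20.

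Fewer miRNAs were detected at E20. Above 0 TPM were 433, 423 and 423 miRNAs in the E18 samples and 353, 422 and 367 in the E20 samples, so that every E20 sample was lower but E20-2 by only 1 miRNA (same exact test, p = 0.1). Of the 576 miRNAs, 285 were present in all 6 samples. Another 9 were present in all E18 samples and in no E20 sample, and 0 showed the reverse. These 9 were all low, with E18 means of at most 1.73 TPM. At a limit of 10 TPM the numbers overlapped, with 154 to 165 at E18 and 151 to 166 at E20. E20-1 and E20-3, which had the fewest miRNAs, also held the fewest reads of listed miRNAs, at 3997832 and 4188351. The E18 samples held 4681778 to 5170864 such reads and E20-2 held 5452078. The part of this depth in the numbers was not tested.

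The comparison of single miRNAs asked which of them changed in these last days. limma was run on log2(TPM + 1). A call required a change of at least 1, which is 2-fold in TPM + 1, and an unadjusted p no higher than 0.05. No miRNA was called higher at E20 (0 of 576, 0%) and 13 were called lower (2.26%), 10 of them known and 3 predicted. At a Benjamini-Hochberg adjusted p of at most 0.05 with the same fold limit 2 remained lower (0.347%) and 0 higher. Without the fold limit, 75 miRNAs were lower (13%) and 3 higher (0.521%) at the unadjusted p of limma. limma shares variance information over all miRNAs in the fit, so p can move with the filter and the pseudocount. For gga-let-7f-5p its unadjusted p was 0.031, then 0.062 at a mean of at least 1 TPM and 0.129 with a pseudocount of 0.1. For gga-miR-92-5p these p-values of limma were 0.0013, 0.0012 and 0.0031. For comparison, edgeR on recovered reads called 9 higher and 18 lower at the unadjusted p and 2-fold, and DESeq2 called 4 higher and 11 lower. At an adjusted p and 2-fold, edgeR called 0 in either direction and DESeq2 called 0 higher and 2 lower, new-gga-miRNA-184 and gga-miR-92-5p. All E20 samples lay below all E18 samples for 86 miRNAs (14.9%) and above them for 5 (0.868%).

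Most abundant miRNAs were lower on the deposited scale. Of the 167 miRNAs whose mean reached 10 TPM, 127 had a negative change, and the median change was −0.38. The median level of the 167 on the log2(TPM + 1) scale was 7.42, 7.53 and 7.37 in the E18 samples. It was 6.72, 7.26 and 6.74 in the E20 samples, so the shift lay mainly in E20-1 and E20-3. These were also the samples with the lowest summed TPM of the listed miRNAs, at 404709 and 409453 TPM. The median change was −0.47 for the 46 miRNAs of at least 1000 TPM, of which 40 were negative. When each sample was centred on the median miRNA, all changes moved up by 0.50, and 11 miRNAs were called higher (1.91%) and 2 lower (0.347%). Those 2 were gga-miR-203a and gga-miR-92-5p. The number of calls in each direction thus depended on the scale. All 13 called miRNAs kept a negative change on the centred one. That was fixed by the rule, since each had a change of −1 or lower and centring added 0.50. Leaving out 1 sample gave 9 to 25 miRNAs called lower, with 25 reached without E20-2, and 0 to 10 called higher, with 10 reached without E18-1. Without E18-2 and E20-2 together 32 were lower and 4 higher.

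**Figure D2:**
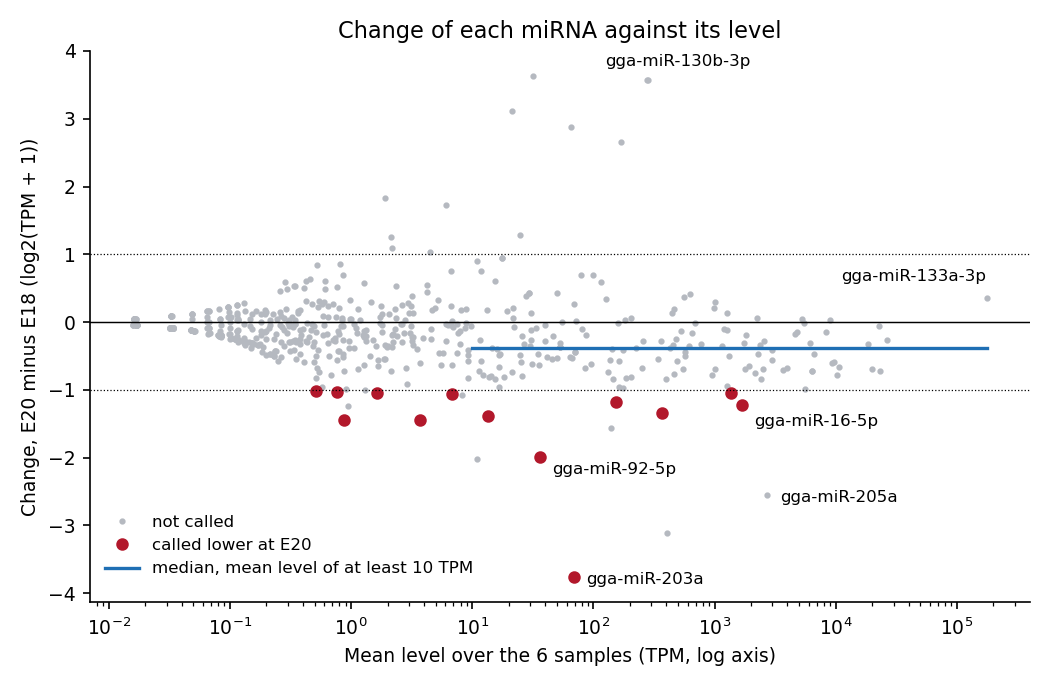
Each point is 1 of the 576 miRNAs, with its mean level over the 6 samples in TPM on a log axis and its change from E18 to E20 on the log2(TPM + 1) scale. The 13 miRNAs called lower are in red, the dotted lines mark a 2-fold change, and the blue line is the median of −0.38 over the 167 miRNAs of at least 10 TPM.

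The largest fall among called miRNAs was that of gga-miR-203a, an epithelial miRNA known in mammals for promoting keratinocyte differentiation. It was at 16.1, 377 and 14.3 TPM at E18 and at 1.82, 2.62 and 2.84 TPM at E20. The stages did not overlap, and E18-2 held far more than the other E18 samples. The change was −3.77 ± 1.26 (SE, n = 3 per stage; limma, adjusted p = 0.297) and −3.27 on the centred scale. Without E18-2, the sample rich in epithelial miRNAs, it was −2.25 and still called. Without E20-1, E20-2 or E20-3 it was −3.63, −3.81 or −3.85 and missed the unadjusted p of limma. The other 8 epithelial markers differed in whether they separated the stages. gga-miR-205a, the most abundant of them, was at 434, 14742 and 421 TPM at E18 and 243, 362 and 150 TPM at E20, without overlap and with a change of −2.56 (−2.06 centred) that missed the unadjusted p. The other 7 overlapped one by one and in sum, at 96.1, 541 and 212 TPM at E18 and 105.0, 101.4 and 52.2 TPM at E20. In bulk muscle a lower number of epithelial cells and a lower level per cell cannot be told apart, and the same holds for every cell type below.

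The next largest fall was that of gga-miR-92-5p, the less abundant arm of miR-92, a member of the miR-17-92 cluster that is known to favour proliferation in mammals. It was at 55.4, 43.8 and 74.2 TPM at E18 and at 12.9, 20.9 and 8.90 TPM at E20. Every E18 sample was above every E20 sample by a factor of more than 2. The means were 57.8 ± 15.3 and 14.2 ± 6.11 TPM (SD, n = 3), a 4.07-fold difference, and the change was −1.995 ± 0.35 (SE; limma, adjusted p = 0.187) and −1.50 on the centred scale. It was called under all 18 alternative settings in which it was tested. The abundant arm, gga-miR-92-3p, was at 34436, 26455 and 23773 TPM at E18 and 11552, 27461 and 15072 TPM at E20. Its stages overlapped through E20-2, and its change of −0.73 (−0.23 centred) did not pass the test (limma, adjusted p = 0.454).

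Both abundant miR-16 miRNAs fell. They are members of the miR-15 and miR-16 family, which in mammals represses cyclins and the survival factor BCL2. gga-miR-16-5p was at 4212, 1409 and 1641 TPM at E18 and at 1068, 964 and 749.8 TPM at E20. gga-miR-16c-5p was at 880.5, 311 and 449 TPM at E18 and at 191, 229 and 169.5 TPM at E20. In both, E18-1 was well above the other E18 samples, and the stages did not overlap. The changes were −1.22 ± 0.44 and −1.34 ± 0.39 (SE, n = 3 per stage; limma, adjusted p = 0.298 and 0.276), and −0.72 and −0.85 on the centred scale. Without E18-1 they were −0.73 and −0.93, under the 2-fold limit. Without E20-1, E20-2 or E20-3, gga-miR-16-5p was at −1.33, −1.25 or −1.07 and missed the unadjusted p of limma.

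gga-miR-128-2-5p, the less abundant arm of a miR-128 hairpin, was close in all E18 samples, at 19.8, 19.9 and 18.6 TPM, and lower at E20, at 5.37, 11.9 and 4.89 TPM. The stages did not overlap, and E20-2 was the nearest to E18. The change was −1.38 ± 0.32 (SE, n = 3 per stage; limma, adjusted p = 0.276) and −0.88 on the centred scale. The abundant arm gga-miR-128-3p was at 10589, 8951 and 14686 TPM at E18 and at 6863, 8357 and 6818 TPM at E20, also without overlap, with a change of −0.61 and −0.11 on the centred scale.

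gga-miR-455-5p, whose hairpin lies in a collagen gene in mammals and is known from cartilage, was at 251, 131 and 262 TPM at E18 and at 97.9, 98.2 and 76.6 TPM at E20. The stages did not overlap, with E18-2 the lowest E18 sample. The change was −1.18 ± 0.30 (SE, n = 3 per stage; limma, adjusted p = 0.276) and −0.68 on the centred scale. All 4 listed cartilage marker arms, of miR-140 and miR-455, lay at E20 below every E18 sample, where 49 of the 167 miRNAs of at least 10 TPM did so, and the other 3 summed to 3780 to 5542 TPM at E18 and 2401 to 3441 TPM at E20. Without E18-3 the change of gga-miR-455-5p was −0.999, just short of the limit. The markers' part in the result was not tested.

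gga-miR-146c-5p, of the miR-146 family that damps NF-kappaB signalling in mammals, was at 2975, 1234 and 1445 TPM at E18 and at 966, 864 and 714 TPM at E20. The stages did not overlap, and E18-1 was again the highest. The change was −1.05 ± 0.36 (SE, n = 3 per stage; limma, adjusted p = 0.297) and −0.55 on the centred scale. Without E18-1 it was −0.67, and without E20-2 or E20-3 it was −1.07 or −0.93 and missed the unadjusted p of limma. The other 8 listed leukocyte markers summed to 621, 285 and 298 TPM at E18 and 248 to 270 TPM at E20, and gga-miR-142-5p, a marker of blood cells, was at 58.7 to 86.8 TPM at E18 and 62.7 to 77.0 TPM at E20. The leukocyte markers miR-223 and miR-150 were not analysed here.

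The remaining 6 called miRNAs had E18 means under 10 TPM. gga-miR-365-2-5p was at 10.3, 3.55 and 3.88 TPM at E18 and at 0.405, 2.33 and 1.66 TPM at E20, and gga-miR-148a-5p was at 6.29, 12.9 and 9.80 TPM against 3.34, 5.64 and 3.23 TPM. Both are the less abundant arms of their hairpins, and neither overlapped between the stages. gga-miR-1737 was at 2.00 to 3.06 TPM at E18 and 0 to 1.56 TPM at E20. new-gga-miRNA-180 was at 1.02 to 1.83 TPM at E18 and 0 to 0.486 TPM at E20, where 5 reads in E20-2 were all that was found. Their calls were lost without single samples: gga-miR-365-2-5p without E18-1 (−1.02) or E20-1 (−1.08), gga-miR-148a-5p without E18-2 (−0.84), E20-1 (−0.96) or E20-3 (−0.94), and new-gga-miRNA-180 without E18-2 (−0.90), E20-1 or E20-3 (both −0.94). gga-miR-1737 lost its call without any sample but E20-3, with changes between −1.14 and −0.67.

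The 2 miRNAs that passed the adjusted p of limma were new-gga-miRNA-184 and new-gga-miRNA-194, both predicted by the authors. At an adjusted p, edgeR called neither and DESeq2 called only new-gga-miRNA-184 of the 2. new-gga-miRNA-184 was at 1.43, 1.93 and 1.84 TPM at E18, which is 15, 19 and 18 reads, and at 0 in all E20 samples. Against the floor of 3 reads per library it was at least 5.70-fold higher at E18 (limma, adjusted p = 0.0235). new-gga-miRNA-194 had 10, 11 and 10 reads at E18 and none at E20, which makes it at least 3.39-fold higher at E18 (limma, adjusted p = 0.0395). Without E18-2 the change of new-gga-miRNA-194 was −0.99, just short of the limit of 1 for a call on the log2(TPM + 1) scale. On the centred scale the changes of the 2 miRNAs were −0.95 and −0.52, both short of that limit. Centring shifts the log2(TPM + 1) values, also those from 0 reads, so for these miRNAs it does not show how the change depends on scaling. Both entered the test through E18 alone, and their values of 0 show no spread at E20. Their means over the 6 samples were under 1 TPM, so the fit limited to a mean of at least 1 TPM left both out. Their small read numbers limit what can be said of their levels.

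**Figure D3:**
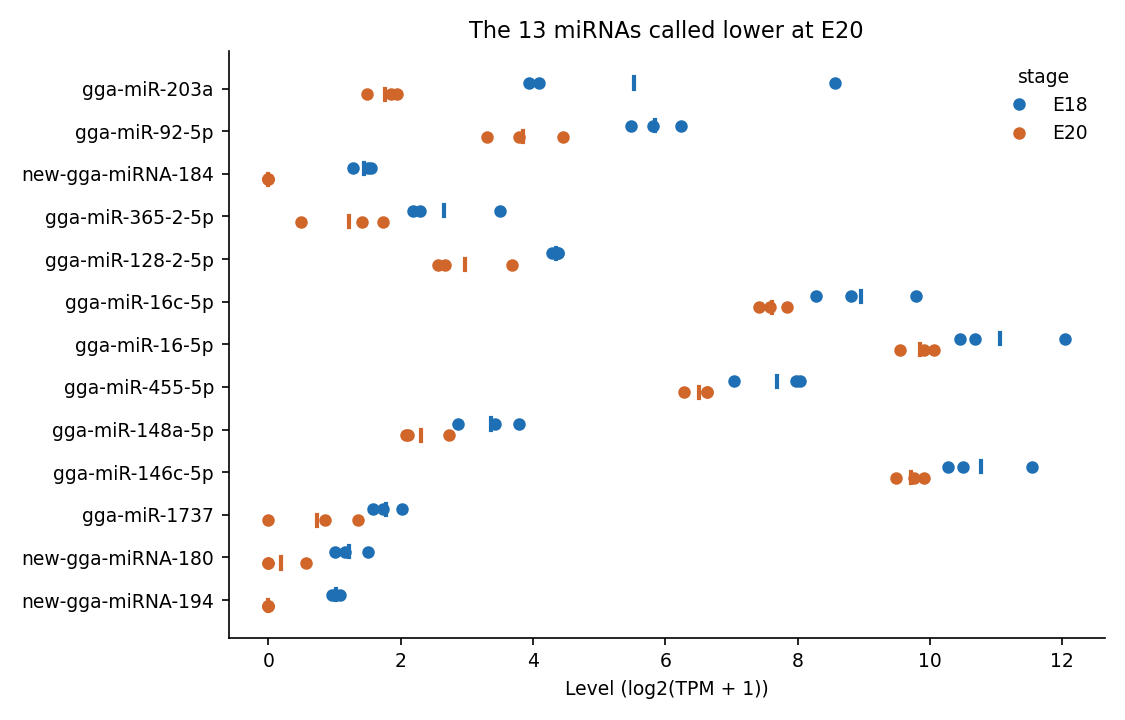
Levels on the log2(TPM + 1) scale of the 13 miRNAs called lower at E20, 1 line each, with a point per sample and a short bar at the mean of each stage (n = 3). In all 13 the E20 points lie below the E18 points, and the calls were made on these same values. The gap is widest in gga-miR-203a, where E18-2 stands at 377 TPM.

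The 5 miRNAs above E18 in all E20 samples were gga-miR-133a-3p, described first, and 4 of lower level. new-gga-miRNA-8 was at 83.3, 96.0 and 95.1 TPM at E18 and at 110.2, 149 and 158 TPM at E20. Its change of 0.58 ± 0.18 (SE, n = 3 per stage; limma, adjusted p = 0.276) was under the 2-fold limit and became 1.08 on the centred scale. Like gga-miR-133a-3p, it passed the adjusted p of DESeq2 on recovered reads but not the 2-fold limit there. With edgeR no miRNA passed an adjusted p. gga-miR-1651-3p, gga-miR-101-1-5p and gga-miR-449c-5p had at most 2.43 TPM in any sample.

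The myomiRs differed among themselves. Of the 11 tested miRNAs of the list, 0 were called, against 13 of all 576. Over its 8 members of at least 10 TPM the median change was 0.01, beside −0.38 over all 167, and on the centred scale these medians were 0.51 and 0.12. gga-miR-133c-3p, a close relative of gga-miR-133a-3p, was at 5287, 5452 and 4834 TPM at E18 and 5040, 5956 and 5100 TPM at E20, which overlap, with a change of 0.05 and 0.54 on the centred scale. gga-miR-133a-5p, the other arm of the miR-133a hairpin, was at 617, 457 and 699 TPM at E18 and 375, 447 and 360.3 TPM at E20. It lay below E18 in all E20 samples, with a change of −0.57 (−0.07 centred), while its 3p partner lay above.

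gga-miR-206, the miRNA that is confined to skeletal muscle in mammals, varied more within a stage than between the stages. It was at 1492, 355 and 119 TPM at E18 and at 119, 216 and 492 TPM at E20. gga-miR-499-5p, which lies within a slow myosin gene, was at 446, 1292 and 465 TPM at E18 and 621, 741 and 559 TPM at E20. Both overlapped between the stages, and their changes of −0.77 and −0.02 (−0.27 and 0.48 centred) did not pass the test.

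In several families most members had negative changes on the deposited scale. All 5 members of at least 10 TPM of the miR-15 and miR-16 family lay at E20 below every E18 sample, where 49 of all 167 did so. Their median change was −0.69, and 2 of the 10 tested members were called, against 13 of all 576. Both of these calls were lost without E18-1. gga-miR-15c-5p, the most abundant, was at 3376, 2900 and 3065 TPM at E18 and at 1678, 2418 and 1761 TPM at E20. On the centred scale the median of the family was −0.19, and gga-miR-15b-5p turned positive at 0.15.

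The let-7 family, which marks the passage to differentiated states in many animals, had a negative change in all 12 members of at least 10 TPM, of which gga-let-7a-5p and gga-let-7j-5p carry identical values, as do gga-let-7a-3p and gga-let-7k-3p. The median was −0.61, beside −0.38 over all 167. Of the 12 members, 5 did not overlap between the stages, against 49 of all 167, and 0 of 14 tested were called, against 13 of 576. gga-let-7f-5p was at 9434, 11771 and 13682 TPM at E18 and at 7422, 9211 and 6482 TPM at E20, all below E18. gga-let-7a-5p was at 6641, 8514 and 8598 TPM at E18 and at 3590.4, 5920.3 and 5084 TPM at E20. The median of the family was −0.11 on the centred scale, where gga-let-7a-3p was at 0.12. The abundant gga-let-7g-5p and the less abundant arm gga-let-7j-3p, at −0.30 and −0.21 on the deposited scale, were also above 0 on the centred one.

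The 9 members of at least 10 TPM of the miR-17-92 and miR-106-363 clusters had a median of −0.73 (−0.23 centred), the lowest of all lists, and 4 did not overlap, against 49 of all 167. gga-miR-17-5p was at 721, 572 and 725 TPM at E18 and at 333, 572 and 376 TPM at E20, and touched E18 only through E20-2. The positive change of gga-miR-18b-3p is not read, since it was at 0 in E18-2 and E18-3, 36.0 TPM in E18-1 and 20.4 to 50.9 TPM at E20. Of the miR-130, miR-301 and miR-454 family, 2 of 9 members did not overlap, against 49 of all 167, and the median of −0.51 became −0.01 on the centred scale. gga-miR-454-3p was at 2306, 2170 and 2481 TPM at E18 and at 1198, 2304 and 1153 TPM at E20, and gga-miR-130a-3p was at 518, 718 and 805 TPM against 440.0, 504 and 469 TPM.

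Mesenchymal and positional miRNAs also had mostly negative changes, as did 127 of all 167 miRNAs of at least 10 TPM. On the centred scale the list medians were −0.06 for miR-199 and miR-214 and −0.05 for miR-10 and miR-196. They were −0.10 for miR-99, miR-100 and miR-125 and 0.12 over all 167. In the same order, 1 of 3, 3 of 5 and 3 of 5 members of at least 10 TPM did not overlap, against 49 of all 167. gga-miR-199-3p, a miRNA of connective tissue, was at 20414, 23800 and 29416 TPM at E18 and at 15945, 15570 and 13573 TPM at E20, without overlap and with a change of −0.69 ± 0.18 (SE, n = 3 per stage; limma, adjusted p = 0.276) and −0.20 on the centred scale. gga-miR-100-5p, whose hairpin is a neighbour of a let-7 hairpin in many animals, was at 6405, 8022 and 7369 TPM at E18 and 4456, 4743 and 2303 TPM at E20. Its change of −0.99 was just under the 2-fold limit and was −0.49 on the centred scale. gga-miR-10b-5p, of the Hox clusters, was at 11353, 12844 and 15037 TPM at E18 and at 9287, 10038 and 5903 TPM at E20, also without overlap. gga-miR-10a-5p, at 6767 to 8908 TPM and 4505 to 6510.05 TPM, did not overlap either, with a change of −0.47 and 0.02 on the centred scale. In contrast gga-miR-125b-5p, at 26164 to 30655 TPM at E18 and 20869 to 30150 TPM at E20, and gga-miR-214, at 4257 to 6437 TPM and 3819 to 7644 TPM, overlapped.

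In each of the other lists at most 1 member of at least 10 TPM separated the stages. Of all 167 such miRNAs, 49 lay below E18 in all E20 samples and 2 above. The miR-30 family had a median of −0.13 (0.36 centred), with gga-miR-30d at 8248, 8069 and 10096 TPM at E18 and 7848, 11859 and 7798 TPM at E20. The miR-23, miR-27 and miR-24 clusters had a median of 0.05 (0.55 centred), and gga-miR-27b-3p was at 713 to 1077 TPM at E18 and 922 to 1265 TPM at E20. gga-miR-29a-3p and gga-miR-29c-3p, which are known to repress collagens in mammals and have identical values here, were at 15.8 to 43.1 TPM at E18 and 24.9 to 45.1 TPM at E20, with a change of 0.43 (0.93 centred). gga-miR-181a-5p, gga-miR-26a-5p, gga-miR-222a, gga-miR-221-3p, gga-miR-103-3p, gga-miR-107-3p, gga-miR-101-3p, gga-miR-30c-5p, gga-miR-23b-3p, gga-miR-193b-3p, gga-miR-365-3p and gga-miR-148a-3p all overlapped, with changes between −0.49 and 0.34. gga-miR-181b-5p was at 4431 to 5120 TPM at E18 and 2242 to 4473 TPM at E20, with a change of −0.67 (−0.17 centred), and the miR-181 family had a median of −0.54 (−0.05 centred). miR-210, which is known to respond to hypoxia, was not analysed here.

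**Figure D4:**
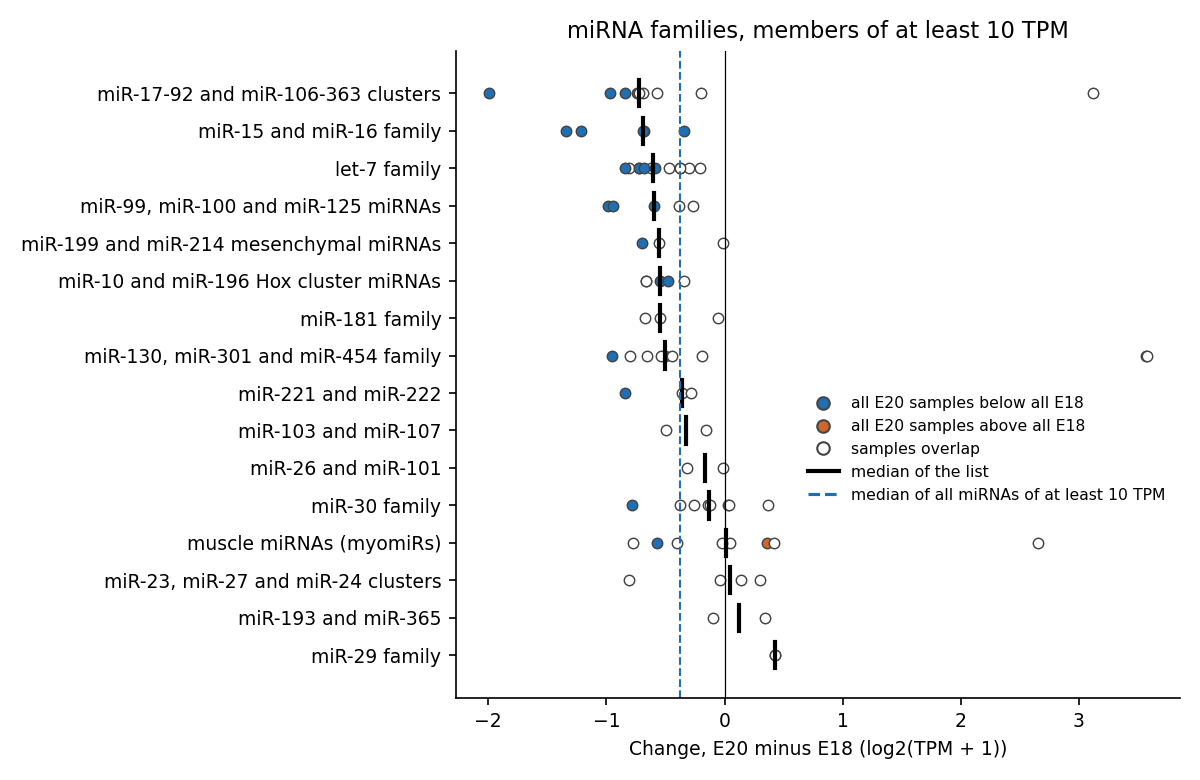
Change from E18 to E20 on the log2(TPM + 1) scale of the members of at least 10 TPM of each miRNA list with 2 or more such members. Each circle is 1 miRNA, filled where all samples of the stages separate, black bars are the list medians and the dashed line is the median of −0.38 over all 167 miRNAs. The list medians run from −0.73 for the miR-17-92 and miR-106-363 clusters to 0.43 for the miR-29 family.

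Of the 2 endothelial arms, 1 lay at E20 below every E18 sample, where 49 of all 167 miRNAs of at least 10 TPM did so. gga-miR-126-3p, known from blood vessels, was at 3535, 2311 and 2386 TPM at E18 and at 1672, 1658 and 1493 TPM at E20, with a change of −0.74 (−0.25 centred) and no overlap, while its other arm gga-miR-126-5p overlapped. The sum of both arms was 4612 to 5217 TPM at E18 and 3671 to 4042 TPM at E20. The 2 listed erythroid marker arms, both of miR-144, summed to 10.9 to 28.01 TPM at E18 and 10.5 to 14.7 TPM at E20. The erythroid marker miR-451 and the smooth muscle markers miR-143 and miR-145 were not analysed here.

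Ratios between the arms of a hairpin cancel the scaling of a library, apart from a small effect of the pseudocount. Among 53 hairpin names with both arms at a mean of at least 1 TPM, the log2 ratio of 5p to 3p was called different in 2 (3.77%), with 0 at an adjusted p (limma). At the unadjusted p of limma without the fold limit, 6 ratios were lower and 0 higher. The ratio of miR-92 was −9.25, −9.20 and −8.30 at E18 and −9.70, −10.29 and −10.57 at E20, without overlap, and changed by −1.27 ± 0.35 (SE, n = 3 per stage; limma, adjusted p = 0.171). The other called ratio, of miR-18b, rests on a pair of E18 samples in which both arms were at 0. Leaving out 1 sample gave 0 to 4 called ratios, with 0 without E18-3, 1 without E20-2 and 4 without E18-2. The ratio of miR-133a was −7.77, −8.47 and −7.92 at E18 and −8.93, −8.97 and −9.04 at E20, again without overlap, and its change of −0.92 ± 0.23 (SE; limma, adjusted p = 0.171) was under the fold limit.

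Hairpins that lie close together in the genome are often transcribed as 1 unit. By name 429 of the 456 known miRNAs matched a miRNA gene of RefSeq (assembly GRCg7b), and 385 matched a single one. Neighbours at most 10 kb apart were compared where at least 3 mature miRNAs of at least 10 TPM were at hand. On the deposited scale the lowest median was that of mir-99a and let-7c, at −0.83, beside −0.38 over all 167 miRNAs of at least 10 TPM. All 4 mature miRNAs of this pair were between −0.94 and −0.59. The 4 mature miRNAs of mir-23b, mir-27b and mir-24 ranged from −0.81 for gga-miR-24-3p to 0.30 for gga-miR-27b-3p. Reads that match several hairpins may have been divided or counted more than once by the authors, so near-identical miRNAs such as those of let-7, miR-133 and miR-16 are uncertain.

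The stages on either side give the setting of this step, as a description. gga-miR-133a-3p had a mean of 82107 TPM at E15 and 131376 TPM on the first day after hatching (D1), with 155879 and 199229 TPM at E18 and E20 between them. gga-miR-92-5p was at 79.7 ± 21.7 TPM at E15 and at 16.5 ± 8.76 TPM at D1 (SD, n = 3), and gga-miR-128-2-5p was at 36.4 ± 16.3 and 8.45 ± 6.10 TPM. gga-miR-203a was at 228 ± 101 TPM at E15 and 4.88 ± 5.83 TPM at D1. In the latter 3 miRNAs the E15 mean was above that of E18 and the D1 mean was nearer to E20 than to E18, while the D1 mean of gga-miR-133a-3p was below that of E18. gga-miR-16-5p and gga-miR-146c-5p differed, since their E15 means of 1329 and 1002 TPM were below those of E18, where E18-1 was highest. Of the 13 called miRNAs, 8 had a higher mean at E15 than at E18, and 12 had a lower mean at D1 than at E18. From E20 to D1 the mean was higher in 9 of the 13 and lower in 4. Over the 167 miRNAs of at least 10 TPM these numbers were 97, 135, 58 and 108. The 13 were chosen for high values at E18 and low ones at E20, which by itself favours D1 means in between. Of them 6 had E18 means under 10 TPM, so the sets are unlike.

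**Figure D5:**
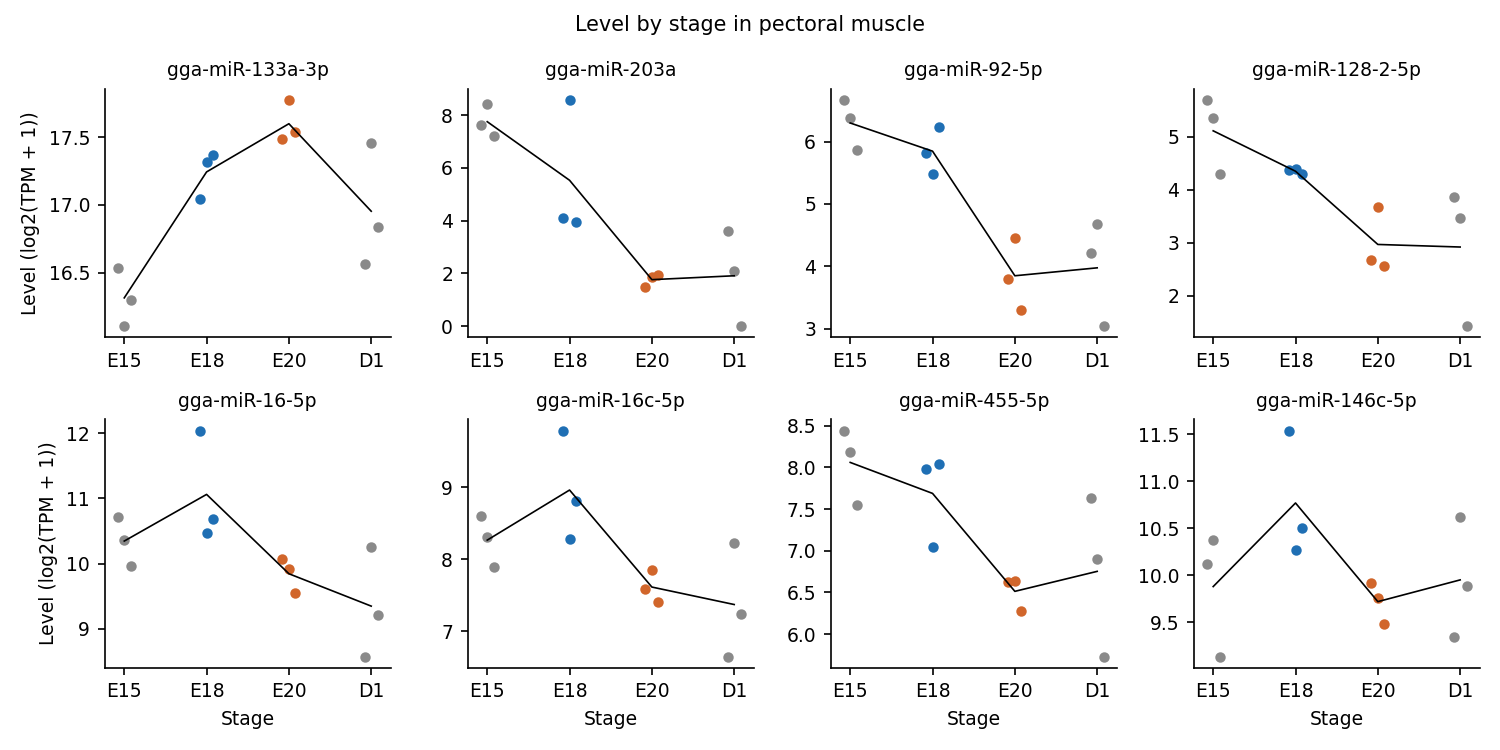
Level on the log2(TPM + 1) scale of gga-miR-133a-3p and the 7 named falls in the samples of E15, E18, E20 and D1, with lines through the stage means (n = 3). E18 is in blue, E20 in orange and the flanking stages in grey, and each panel has its own axis. gga-miR-133a-3p has its highest mean at E20, at 199229 TPM.

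A few miRNAs switched between 0 and a high level within a stage. At either stage 7 miRNAs, 12 in all, were listed at 0 in 1 replicate and at 10 TPM or more in another. gga-miR-130b-3p and gga-miR-130b-5p were at 1667 and 1692 TPM in E20-2 and at 0 in the other 5 samples. gga-miR-21-5p was at 581 TPM in E18-1 and 652 TPM in E20-2 and at 0 in the other 4, and gga-miR-21-3p was at most 1.90 TPM. gga-miR-1a-3p was at 169.5 and 185 TPM in E18-1 and E18-2, 0 in E18-3 and 129 to 363 TPM at E20. No change between the stages is read from these miRNAs one by one. The arms of miR-130b, gga-miR-18b-3p and gga-miR-1a-3p remain in the counts and medians of their lists, and miR-18b in the arm ratios.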

How the data were processed

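Small RNA of 3 E18 and 3 E20 samples was used, grouped by the titles of the samples. The authors trimmed adapters with cutadapt, removed other small RNAs with bowtie2, counted known miRNAs by miRBase, predicted others with miRDeep2 and deposited values named TPM. The deposited values are RPM: in each of the 6 samples 100% of the values above 0 were whole multiples of 1 step within 0.1 read, and the step gave the library totals. The genome build is not given in the sources used here. The tests planned for TPM were kept, since RPM needs a log scale too.

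limma was fitted to log2(TPM + 1) over all 576 miRNAs above 0 in at least 1 sample, with no covariate. The limits for a call, an unadjusted p of 0.05 and a change of 1, follow the paper, and Benjamini-Hochberg values are over all miRNAs tested. Changes on this scale understate those of low miRNAs. For single values, all regroupings of the 6 samples gave an exact two-sided p. Named were called miRNAs of at least 10 TPM in the higher stage without overlap, the 2 most abundant and any called member of each list, the 10 most abundant miRNAs and called arm pairs. For the named falls the lack of overlap was thus a condition of naming. Others, such as gga-miR-205a, new-gga-miRNA-8, gga-miR-206, gga-miR-499-5p, gga-miR-18b-3p and gga-miR-130b, were picked with their values in view. The miRNAs, lists and tests were chosen with earlier results of these data known.

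The alternatives were another pseudocount, filter, scale, block, sample set or tool, and leaving out samples. edgeR with library totals, leaving out miRNAs that switch between 0 and at least 10 TPM, and leaving out E18-2 and E20-2 together were chosen after seeing the data. The fits were run on simulated counts that held no shift common to most miRNAs and no switching between 0 and high levels. That setting is simpler than these data, so it does not show how well the fits perform here. R 4.3.3, limma 3.58.1, edgeR 4.0.16, DESeq2 1.42.0, with Matplotlib 3.10.9, SciPy 1.17.1, pandas 2.3.3, NumPy 2.4.6 and Python 3.11.15, were used. The table of the other tissues was not used.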

Additional observations from a re-analysis of the deposited data

How the results depend on the processing

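The number of miRNAs called higher at E20 and of miRNAs called lower at E20, 0 and 13 on the deposited scale, was 2 and 29 with a pseudocount of 0.1, 2 and 11 with a mean of at least 1 TPM, 3 and 75 without the fold limit, 1 and 24 on untransformed TPM, and 2 lower at adjusted p. Other scales gave 11 and 2 (centred on the median miRNA), 1 and 13 (rescaled to the listed miRNAs), 6 and 15 (the same without gga-miR-133a-3p) and 1 and 5 (TMM). One fit of the 39 muscle samples gave 5 and 16, edgeR 9 and 18, DESeq2 4 and 11, and, chosen after seeing the data, edgeR with library totals 7 and 26, leaving out miRNAs that switch between 0 and 10 TPM 1 and 14, and leaving out E18-2 and E20-2 together 4 and 32. Leaving out 1 sample gave 0 to 10 higher and 9 to 25 lower, and arm ratios called went from 2 to 0 to 4. Called arm ratios were 1 at 10 TPM per arm and 0 at adjusted p. The median change of −0.38 was −0.28 at a mean of at least 1 TPM and −0.52 to −0.32 without 1 sample.

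With 1 sample left out, the difference in the share of gga-miR-133a-3p stayed between 12.2 and 14.3 percentage points, that in miRNAs above 0 TPM per sample between −66.3 and −31.8, and that in summed TPM of the listed miRNAs between −85212 and −22636. The replicate numbers share no animal, so the samples were not paired. Deviations from the stage means correlated at −0.25, −0.10 and −0.17 for samples of the same number, against −0.15 to 0.29 for different numbers. Such values, from 3 samples per stage, cannot tell whether samples of 1 number were handled together. With the replicate block 12 miRNAs were called lower and 0 higher, and 2 arm ratios were called. No called change reversed its sign. The call was kept by gga-miR-92-5p under all 18 alternatives and lost by gga-miR-16-5p under 11, gga-miR-146c-5p under 10 and gga-miR-1737 under 15, with changes of −1.55 to −0.72, −1.32 to −0.55 and −2.25 to −0.55. The cause was not tested. Leaving out single samples ended the calls of 10 of the 13 miRNAs, all but gga-miR-92-5p, gga-miR-128-2-5p and new-gga-miRNA-184, and depth limits the miRNAs of a few reads.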

Other observations

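The less abundant arms of hairpins did not stand out as a group. Among the 53 hairpin names with both arms at a mean of at least 1 TPM, the less abundant arm had the lower change in 24, and its median change was −0.38, against −0.45 for the abundant arm. Of the predicted miRNAs, 21 had a mean of at least 10 TPM, with a median change of −0.14, against −0.43 for the 146 known ones. Their share of the summed TPM was 4.53 to 6.12% at E18 and 4.27 to 4.75% at E20, which overlap. The most abundant predicted miRNA, new-gga-miRNA-1, was at 14011, 10019 and 14879 TPM at E18 and at 7454, 7659 and 7323 TPM at E20. All E20 samples lay below those of E18 and close to each other, and its change was −0.77 ± 0.19 (SE, n = 3 per stage; limma, adjusted p = 0.276) and −0.28 on the centred scale.

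Neuronal markers were low and varied within both stages. The 3 detected of 7 listed arms of miR-9 and miR-124 summed to 196, 53.4 and 45.6 TPM at E18 and to 85.7, 105 and 200.4 TPM at E20. The liver miRNA gga-miR-122-5p was at 164, 24.4 and 28.6 TPM at E18 and at 55.7, 128 and 70.5 TPM at E20. E18-1 was the highest E18 sample in both.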
